A study of Mus musculus with 52 samples.

Results

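The IFT-B complex was followed through 10 of its subunit genes, Ift88, Ift81, Ift74, Ift52, Ift46, Ift57, Ift20, Ift80, Ift172 and Ttc26. These were chosen by gene symbol as known subunits from the 24421 symbols of the count tables. All 10 were present in every table and all 10 passed the filter on low counts. IFT-B is the part of the intraflagellar transport (IFT) machinery that kinesin-2 motors carry from the base of the cilium to its tip, bringing tubulin and other cargo to the growing axoneme. The return journey is driven by dynein-2, of which WDR34 and WDR60 are the intermediate chains, together with the IFT-A complex. IFT-B has a core, IFT-B1, to which IFT88, IFT81, IFT74, IFT52, IFT46 and TTC26 (also named IFT56) belong, and a peripheral part, IFT-B2, represented here by IFT57, IFT20, IFT80 and IFT172.

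RNA was sequenced from Cilia-APEX-IMCD3 cells, an immortalised line from the mouse inner medullary collecting duct, after CRISPR base editing of Wdr34 or Wdr60 with missense alleles. There were 13 labelled samples of a single-cell clone in a given state, called clones here, each with 4 technical replicate libraries, 52 in all. Ciliated cells comprised 4 control clones (D8, H12, A4 and G7) and 3 homozygous mutant clones (Wdr34 clone 1, Wdr34 clone 3 and Wdr60), and non-ciliated cells comprised 4 control clones (AB, 1, 2 and 3) and 2 homozygous mutant clones (Wdr34 and Wdr60). The labels name the edited gene but not the allele, and clones are described here by gene only. The text of the study adds that 1 of its Wdr34 alleles was not included in the non-ciliated cells. The methods add that control cells went through base editing without a targeting oligonucleotide and that ciliation was induced by serum starvation. The results of the study state that some edited clones carried an unintended heterozygous change beside the intended one. The labels name medium with serum for all samples, and the text of the study places the sequencing of non-ciliated cells before that of at least 1 ciliated mutant. State, serum withdrawal and sequencing time therefore cannot be told apart, and the fits treat the 13 clones as independent. The study speaks of 4 control and 3 mutant clones for these 13 samples, so by its account some clones occur in both states. The labels do not match clones between states, and no clone was paired. Fits over both states therefore count samples of a recurring clone as independent.

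Library totals lay between 14816200 and 28085000 counts, and no pair of libraries of a clone was identical. Members had from 211 counts (Ift88) to 2352 counts (Ift80) in a library. Some libraries lay farther from the rest of their clone than others. The median absolute difference over all tested genes was 0.297 (log2) for the first library of non-ciliated control AB and 0.232 for the first of non-ciliated Wdr60. It was 0.159 to 0.243 in the ciliated Wdr60 clone, 0.210 for the fourth library of ciliated control G7 and 0.207 for the first of ciliated control A4. The smallest was 0.0546, in non-ciliated control 2. Of the renal epithelial markers, Aqp2, the collecting duct water channel, was at or near 0 in all 13 clones. The summed level of the 20 epithelial markers was 1270 CPM (counts scaled to library size) in ciliated control G7 and 999 in non-ciliated control 2, against 1726 to 5072 in the other clones. Cdh1, the epithelial cadherin, was at 14.7 and 4.27 CPM in those 2 clones and between 241 and 649 CPM elsewhere, whereas the renal transcription factors Pax2 and Pax8 were higher in them than in any other clone. The edited genes themselves stayed expressed, with Wdr34 at 21.6 to 49.7 CPM and Wdr60 at 20.2 to 30.6 CPM over all clones.

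Transcript levels of the members were compared with each other per kilobase of exon, using the union of GENCODE exons on GRCm38. The authors counted reads with another annotation, from iGenomes. The order therefore depends on the lengths used, from 1525 bases (Ift20) to 12428 bases (Ift80). Ift20 (chromosome 11, 78536361–78541737), which encodes the subunit that also resides at the Golgi, had the highest median over the 13 clones at 18.9 CPM per kb. Ift52 (chromosome 2, 163017354–163046141) followed at 16.9 and Ift74 (chromosome 4, 94614491–94693229) at 16.2 CPM per kb. These 3 genes held ranks 1 to 3 in every clone, and their ranges over clones overlapped. Ift172 (chromosome 5, 31253277–31291116), Ift81 (chromosome 5, 122550204–122614518), Ift57 (chromosome 16, 49699233–49765126), Ift46 (chromosome 9, 44767908–44793447) and Ttc26 (chromosome 6, 38381469–38427647) lay between 8.80 and 6.50 CPM per kb with overlapping ranges. Ift80 (chromosome 3, 68892499–69004570) had a median of 5.54 CPM per kb, although its median before division by length, 68.9 CPM, was the highest of all members. Ift88 (chromosome 14, 57424062–57517936), the gene disrupted in the orpk mouse model of polycystic kidney disease, was the lowest at 3.46 CPM per kb and held rank 9 or 10 in every clone. Exons of Ift88 shared 1.45% of their length with an antisense gene, and those of Ift57 shared 7.86%. The strand setting of the counting is not given in the sources used here, so reads from these stretches cannot be assigned to one gene.

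Promoter windows of GRCm38.p6, from 250 bases before to 50 bases after the start, were available from RefSeq for 8 members. They were searched on both strands for the X-box, the binding motif of the RFX family that is known to control many ciliary genes, for GTTGCC, which can lie inside an X-box, and for CCAAT. The last of these was found in 6 of 8 windows, against 37.4% of all 32851 windows. GTTGCC was found in 4 of 8, against 12.5%, and the full X-box in 1 of 8, against 1.53%. That window was the one of Ift57, where each X-box match also contains a GTTGCC. The 150 bases before the start that the promoter table uses are printed for Ift57, because it held the X-box, and for Ttc26 and Ift52, because they had the largest differences between states, with matches to any of the motifs in capitals. They are at chr16:49699144-49699293, chr6:38381374-38381523 and chr2:163017203-163017352, all on the plus strand.
Ift57: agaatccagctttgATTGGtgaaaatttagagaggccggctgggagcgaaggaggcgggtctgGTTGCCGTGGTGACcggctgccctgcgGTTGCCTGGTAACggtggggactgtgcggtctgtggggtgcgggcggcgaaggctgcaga
Ttc26: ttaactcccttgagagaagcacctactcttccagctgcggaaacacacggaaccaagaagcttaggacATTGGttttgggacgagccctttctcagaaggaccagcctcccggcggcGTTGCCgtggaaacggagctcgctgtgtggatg
Ift52: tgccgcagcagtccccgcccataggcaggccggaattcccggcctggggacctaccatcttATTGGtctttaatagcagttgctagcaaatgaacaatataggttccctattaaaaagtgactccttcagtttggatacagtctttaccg
In the windows of Ttc26 and Ift52 the CCAAT lies on the other strand, 82 and 89 bases before the start, and reads ATTGG as printed. A gene can have other starts. The first annotated base of Ttc26 lies inside its printed stretch in both GENCODE and RefSeq, that of Ift57 does in GENCODE, and the RefSeq gene of Ift52 begins before its stretch, so positions hold for the start of the promoter table only. These matches describe the sequence only, and no binding was measured.

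**Figure D1:**
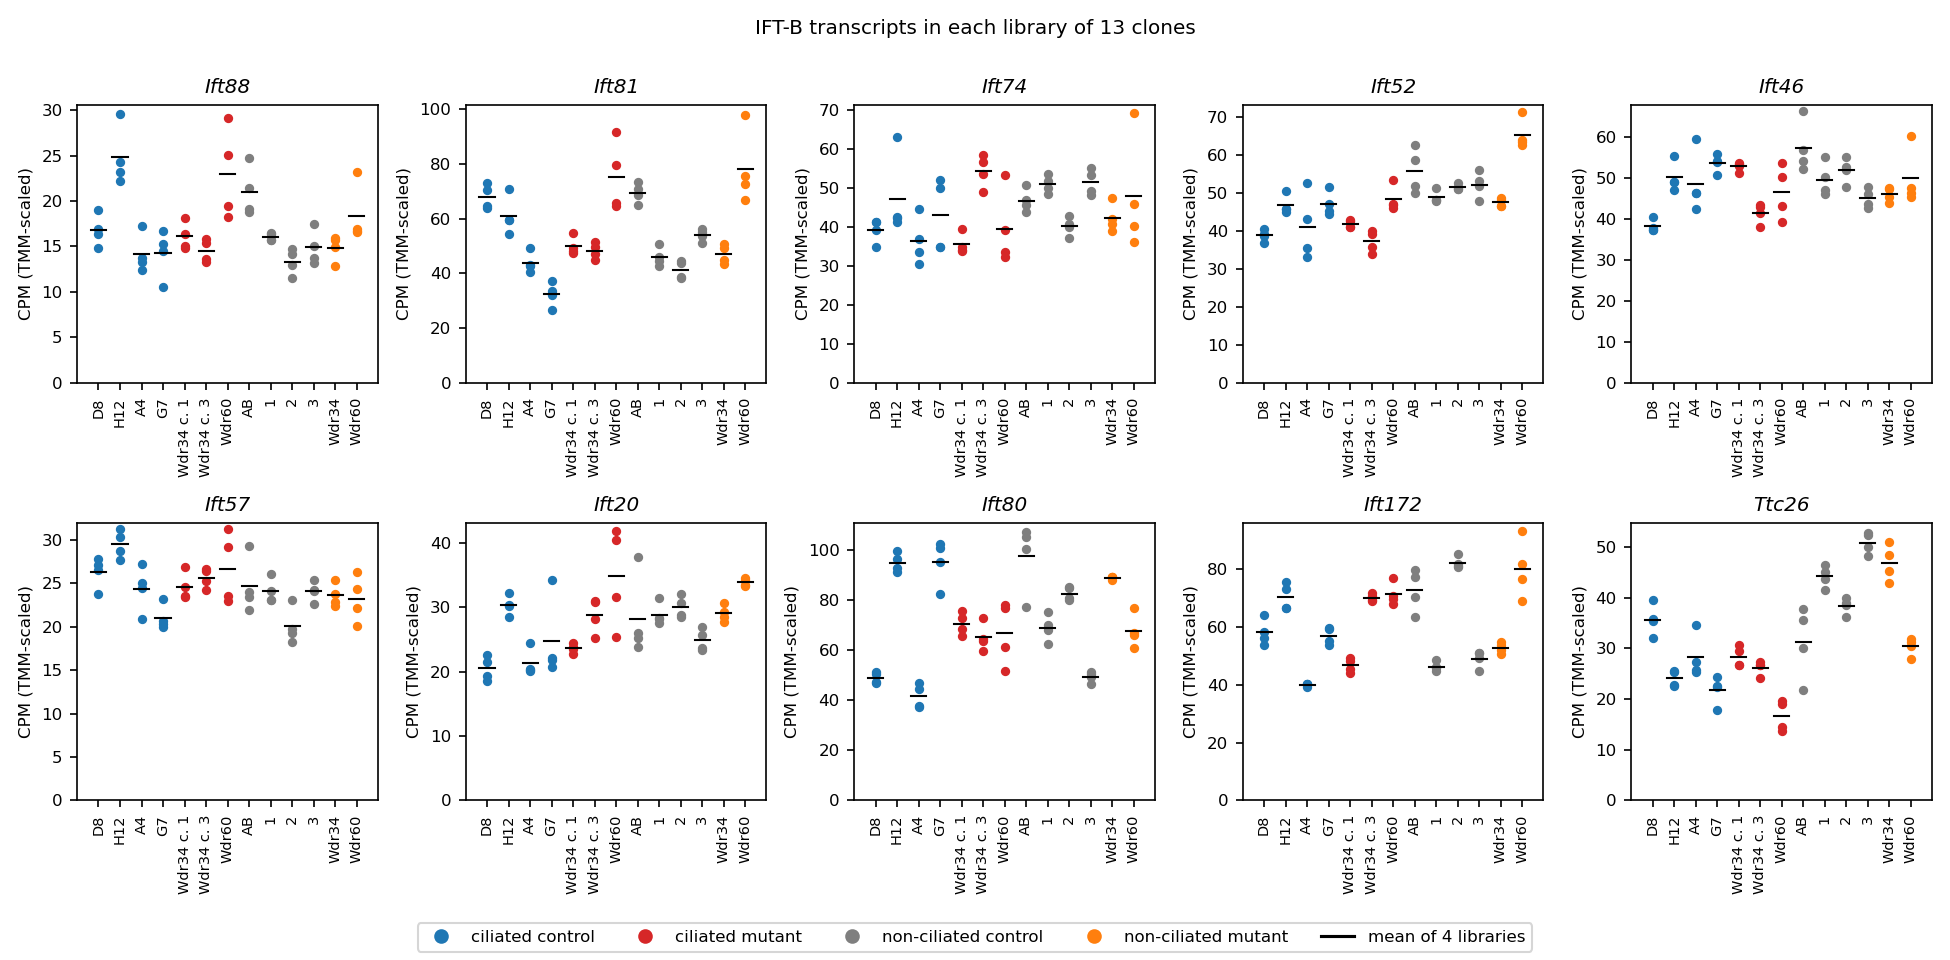
Level of each member in CPM (TMM-scaled, linear axis from 0) in every library, by clone. Points are the 4 libraries of a clone, bars their mean, and colours the 4 groups. Ttc26 is the member whose ciliated clones lie lowest relative to the non-ciliated ones, while Ift80 ranges from 41.6 to 97.3 CPM with no order by group.

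The first question was whether the dynein-2 intermediate chain mutations went with altered IFT-B transcript levels in ciliated cells. None of the 10 members was called by edgeR's quasi-likelihood F test on clone sums, at a Benjamini-Hochberg adjusted p under 0.05, and 0 had an unadjusted p under 0.05. Over all 13994 genes tested the same comparison called 0%, with 272 genes at an unadjusted p under 0.05. That number was 621 without G7, 545 without H12 and 789 without both G7 and non-ciliated control 2, with 0 genes and 0 members called each time. In RNA from whole cultures, fewer cells expressing a gene and less RNA per cell cannot be told apart. DESeq2 on the same sums called 1 gene higher and 2 lower, and 0 members. The median log2 fold change was 0.03 over the members and 0.00 over all genes, and 6 of 10 members were on the positive side. The members' median was 0.14 without H12 and -0.003 without Wdr60.

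In the IFT-B1 core, Ift88, the subunit most often used to mark IFT trains in the cilium, had mean levels of 16.1 CPM in Wdr34 clone 1, 14.5 in Wdr34 clone 3 and 23.0 in Wdr60. The ciliated controls were at 16.8 (D8), 24.8 (H12), 14.2 (A4) and 14.3 CPM (G7). All 3 mutant clones lay inside the range of the controls, and the log2 fold change was 0.04 (95% interval -0.51 to 0.59). Ift81 and Ift74, whose proteins pair to form the tubulin-binding module, differed by 0.18 (-0.46 to 0.82) and 0.07 (-0.29 to 0.43). For Ift81 the 4 controls alone ran from 32.4 ± 4.53 (G7) to 68.0 ± 4.55 CPM (D8; mean ± SD of 4 libraries). Only the Wdr60 clone, at 75.4 ± 12.9 CPM, lay above them. Ift52 and Ift46, which encode further core subunits, differed by -0.03 (-0.32 to 0.27) and -0.02 (-0.31 to 0.28), the narrowest intervals of the set. Ttc26, which encodes the TTC26/IFT56 subunit, was at 28.4, 26.2 and 16.7 CPM in the mutant clones and at 35.7, 24.1, 28.2 and 21.8 CPM in the controls, and its log2 fold change of -0.20 had an interval of -0.77 to 0.36. The Wdr60 clone was below every control and the Wdr34 clones were among them.

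In the peripheral IFT-B2 group, Ift20 had the largest difference, at 0.25 (-0.13 to 0.62). It was measured at 23.6, 28.8 and 34.8 CPM in Wdr34 clone 1, Wdr34 clone 3 and Wdr60, and at 20.5 (D8), 30.3 (H12), 21.3 (A4) and 24.8 CPM (G7) in controls. The Wdr60 clone alone exceeded every control, and its 4 libraries were spread from 25.3 to 41.9 CPM. Ift57 differed by 0.02 (-0.29 to 0.33), Ift80 by -0.04 (-0.69 to 0.61) and Ift172, the largest IFT-B subunit, by 0.16 (-0.41 to 0.72). An exact 2-sided permutation test over the 35 splits of clone means, which cannot give a p below 0.0286, gave p between 0.257 (Ift20) and 0.943 (Ift46). No member separated the mutant from the control clones, whereas 2.17% of all genes did.

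In non-ciliated cells, the same comparison asks whether an effect is present without cilia. Again 0 of 10 members were called by edgeR (0% of all genes, 516 of them at an unadjusted p under 0.05, or 316 without Wdr60), 0 members had an unadjusted p under 0.05, and DESeq2 called 8 genes higher and 16 lower, and 0 members. The 10 log2 fold changes ran from -0.09 (Ttc26, interval -0.73 to 0.55) to 0.26 (Ift81, -0.46 to 0.98), with a median of 0.06 against 0.00 over all genes. The members' median was -0.12 without Wdr60 and 0.17 without AB. All 4 IFT-B2 members were on the positive side, from 0.03 (Ift57) to 0.19 (Ift20), with every interval reaching from below to above 0. With 2 mutant clones, the exact permutation test has 15 splits and a smallest p of 0.0667, so it could not pass 0.05. Its lowest p was 0.20 (Ift20). No member separated mutants from controls, against 13.1% of all genes. Whether the mutant effect differed by state was tested as an interaction, which called 0 members and 0% of genes (136 at an unadjusted p under 0.05, or 410 without G7 and 249 without ciliated Wdr60, and 0 called by DESeq2), with intervals as wide as -1.10 to 0.86 (Ift80) and as narrow as -0.60 to 0.28 (Ift52).

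**Figure D2:**
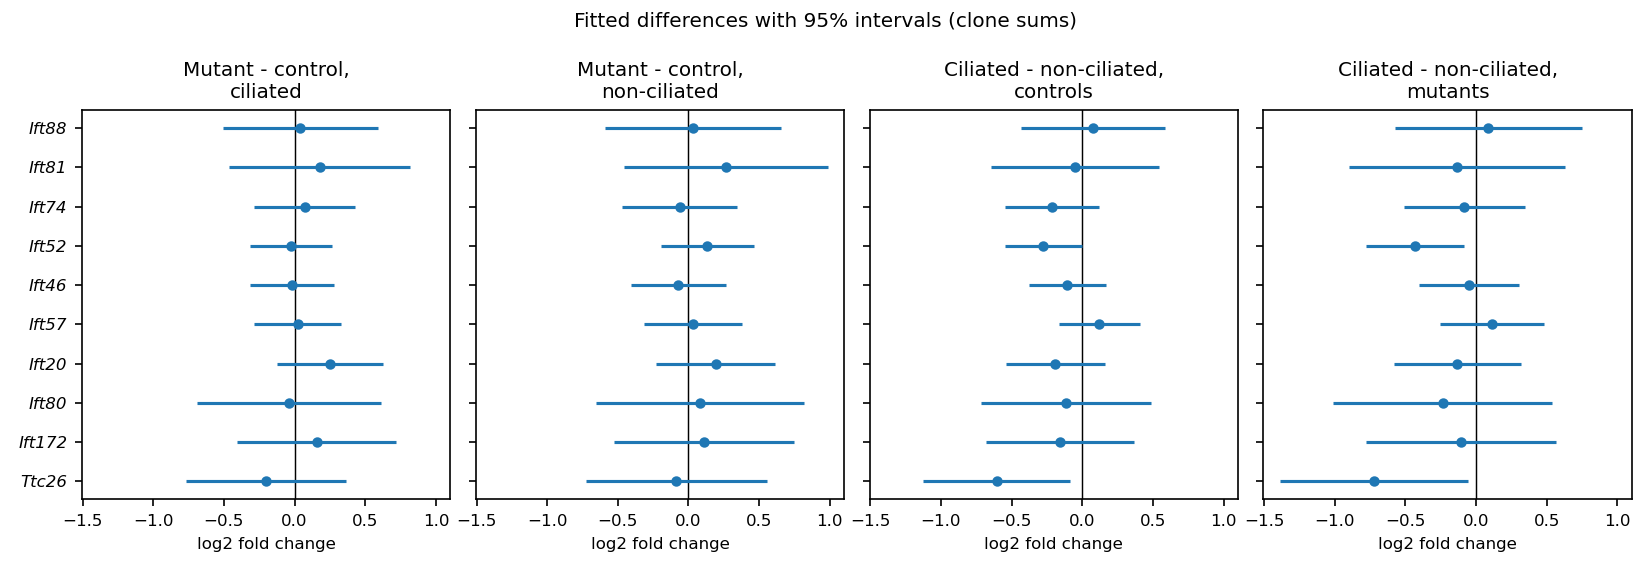
Fitted log2 fold change of each member (points) with its 95% interval (lines) from clone sums, for mutants against controls in each state and for ciliated against non-ciliated clones in each genotype. All 20 intervals between mutants and controls include 0, and between states only those of Ift52 and Ttc26 lie below 0.

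Each mutant clone was also set against the controls of its state, where a lone clone is assumed to vary like the control clones. Members called were 0 in each of these 5 comparisons, as were 0% of all genes for Wdr34 clone 1, for both Wdr60 clones and for the non-ciliated Wdr34 clone, and 0.00686% (1 gene) for Wdr34 clone 3. How many genes had an unadjusted p under 0.05 changed with the control clone left out. The same held for members in the comparisons of the ciliated Wdr60 clone and of Wdr34 clone 3. Without both G7 and non-ciliated control 2, 13 genes were called higher and 7 lower in Wdr34 clone 3, none of them a member. DESeq2 called at most 43 genes higher and 35 lower, and 0 members. The largest differences were those of the Wdr60 clones. Ttc26 was lower than the controls by -0.73 in ciliated cells (-1.55 to 0.09, adjusted p = 1.0) and by -0.44 in non-ciliated cells (-1.24 to 0.36). Ift81 was at 0.54 (-0.38 to 1.47) in ciliated and 0.58 (-0.34 to 1.5) in non-ciliated Wdr60 cells. In the Wdr34 clones the largest was that of Ift74 in clone 3, at 0.41 (-0.06 to 0.88, adjusted p = 0.785), where the 4 libraries were at 48.9, 56.6, 58.4 and 53.5 CPM. The controls of that state ranged from 36.4 (A4) to 47.2 CPM (H12) on average, although the first H12 library reached 63.2 CPM. Fibroblast markers were higher in Wdr34 clone 3 than in any other clone, and their part in this difference was not tested.

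When the technical libraries were taken as the samples instead, calls became more frequent among all genes. The p-values then measure the spread between libraries of a clone, and are too small for a statement about genotype. In these fits Ift74 was higher and Ift52 lower in Wdr34 clone 3 (27.2% of all genes called). In the ciliated Wdr60 clone Ift81 and Ift20 were higher and Ttc26 lower (14.3%), and in the non-ciliated Wdr60 clone Ift81 and Ift52 were higher (13.6%). No member was called for Wdr34 clone 1 (5.46%) or the non-ciliated Wdr34 clone (11.2%), for the mutants as a group in ciliated (6.57%) or non-ciliated cells (10.5%), or for the interaction (1.89%).

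The state comparison was carried out in control clones and in mutant clones, without pairing clones between states. Pairs of samples with like chromosome medians, which may be the same clone, are described below. Ttc26 and Ift52 were lower in the ciliated sample of each pair named there, which adds no separate test, for the reasons given there. In controls, 0 of 10 members passed the adjusted threshold, while 18.4% of all genes did (1256 higher and 1324 lower in ciliated cells). Unadjusted p-values were under 0.05 for 2 members, Ttc26 and Ift52. This count rests on single clones, being 0 without non-ciliated control 1 or 3, and 1 without AB, non-ciliated control 2, any 1 of the ciliated controls or Wdr34 clone 1. Ttc26 was at 35.7, 24.1, 28.2 and 21.8 CPM in D8, H12, A4 and G7, and at 31.4, 44.2, 38.4 and 50.9 CPM in AB, 1, 2 and 3. Only D8 reached into the range of the non-ciliated controls. The log2 fold change was -0.61 (-1.13 to -0.08, SE 0.24, edgeR p = 0.0266, adjusted p = 0.0973), and the exact permutation p over 70 splits was 0.0571. With libraries as samples and the clone as a random block (limma), which allows for the likeness of libraries of a clone, Ttc26 was called at -0.65 (adjusted p = 0.0175), the only member among 27% of all genes. Ift52 was at 38.8, 46.7, 41.0 and 47.0 CPM in the ciliated and at 55.7, 48.8, 51.5 and 52.2 CPM in the non-ciliated controls. Its groups did not overlap, as was the case for 21.4% of all genes, and the exact permutation p of 0.0286 is the smallest this design allows. Its log2 fold change was -0.27 (-0.54 to -0.00, SE 0.12, adjusted p = 0.141). With plain CPM in place of TMM-scaled CPM that permutation p was 0.143. The other members ran from -0.22 (Ift74) to 0.12 (Ift57), and the median was -0.14 against 0.02 over all genes. The members' median moved to -0.29 without H12, -0.21 without non-ciliated control 3, -0.08 without A4 and -0.06 without AB.

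In mutant clones 12.9% of all genes were called between states (745 higher, 1054 lower) and again 0 of 10 members. DESeq2 called 1506 genes higher and 1623 lower, and 0 members. That share rests on few clones, with 3 genes higher and 28 lower without non-ciliated Wdr34, 182 and 412 without non-ciliated Wdr60, 293 and 475 without ciliated Wdr34 clone 1, and 411 and 623 without ciliated Wdr60. Only the ciliated group holds 2 Wdr34 clones, so this comparison also sets different mixes of mutants against each other. Ttc26 was at 28.4, 26.2 and 16.7 CPM in the 3 ciliated clones and at 46.9 and 30.4 CPM in the 2 non-ciliated clones, with a log2 fold change of -0.72 (-1.39 to -0.06, adjusted p = 0.132). Ift52 was at 41.8, 37.2 and 48.3 CPM against 47.4 and 65.2 CPM, with a log2 fold change of -0.43 (-0.78 to -0.09, adjusted p = 0.0888). For Ttc26 all 3 ciliated clones lay below the lower non-ciliated one, as 52.4% of all genes also had groups that did not overlap here, and for Ift52 the ranges overlapped. Wdr60 had 1 clone in each state. Between its ciliated and non-ciliated clones Ttc26 differed by -0.90 (-1.89 to 0.09) and Ift52 by -0.46 (-0.95 to 0.02), and edgeR called neither these nor any other gene (0%, 1352 genes at an unadjusted p under 0.05). DESeq2 called 80 genes higher and 106 lower, and 0 members. With libraries as samples, Ttc26 and Ift52 were called lower in ciliated cells in all of these comparisons, and Ift20 as well in controls, beside 61.9% of all genes in controls, 60.4% in mutants and 37.8% for Wdr60.

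Genes of the same transport system were read in the same fits. Between states in controls, where 18.4% of all genes were called, 0 of 8 other IFT-B subunits tested were called. The same holds for 5 kinesin-2 genes, which carry IFT-B, and for 5 dynein-2 genes. Lists this short can hold 0 called genes at that share, so these counts do not set them apart from other genes. Among 6 IFT-A genes 1 was higher and 1 lower. Ift140, a core IFT-A subunit, rose by 0.61 in ciliated controls (adjusted p = 0.0407), and Ttc21b, which encodes the peripheral IFT-A subunit IFT139, fell by 1.55 (adjusted p = 0.00148). Both were called in mutants too, at 0.90 and -1.92, beside 12.9% of all genes. Of 6 IFT regulators Ick, the kinase that acts on trains at the ciliary tip, was lower by -0.51 (adjusted p = 0.032), and of 8 ciliary transcription factors Rfx3 was lower by -0.60 (adjusted p = 0.0329). Between mutants and controls none of these genes was called in either state, as was the case for all genes tested.

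Of 12 proliferation genes 5 were called lower in ciliated controls and 0 higher, beside 18.4% of all genes called, and 7 were not called. Their summed level was 4374 CPM in G7 and 3291 to 3444 CPM in the other ciliated controls, against 3687 to 4407 CPM in non-ciliated controls. Bub1 (-0.94), Plk1 (-0.66), Rrm2 (-0.52) and Top2a (-0.44) had the largest differences among the genes called. Of 15 renal epithelial genes tested Tfcp2l1, a collecting duct transcription factor, was higher by 0.83. Of 2 proximal tubule genes tested Cubn fell by 2.45 and Lrp2 was not called, at 0.26 (-2.26 to 2.78), and the summed list was highest in G7 at 458 CPM. The thick limb gene Umod was called higher, at 9.80 CPM in H12, 0.956 in D8, 0.272 in A4 and 0 in G7, with at most 1 count in a non-ciliated library, so that H12 held most of the level. Summed over their lists, fibroblast markers were at 31.1 CPM in Wdr34 clone 3, which was also low in epithelial markers at 1726 CPM, and at 1.34 to 5.58 CPM in the other clones. Over all clones, leukocyte markers were at 0.856 to 5.40 CPM and endothelial markers at 0 to 0.137 CPM. The part of these differences in the levels of Ttc26 and Ift52 was not tested. Without G7 and non-ciliated control 2 together, a choice made after seeing that these clones were lowest in Cdh1 and Epcam, the log2 fold change in controls was -0.55 for Ttc26 and -0.33 for Ift52, with neither called.

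How far clones of one genotype differed was examined next, because it sets the scale for every comparison above. Between the 4 ciliated control clones, 9 of 10 members differed beyond the spread of technical libraries (edgeR quasi-likelihood F test on libraries), the exception being Ift74 with an adjusted p of 0.123. The same test called 84.3% of all genes. Between the 4 non-ciliated controls 7 of 10 members differed, against 77% of all genes, the exceptions being Ift74, Ift52 and Ift20. Members thus differed between control clones about as often as other genes.

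Ift80 differed most among ciliated controls, at 48.8 ± 2.31 (D8), 94.7 ± 3.69 (H12), 41.6 ± 4.87 (A4) and 95.1 ± 8.96 CPM (G7). H12 and G7 thus had levels like those of non-ciliated control AB, at 97.3 ± 13.8 CPM, and of the non-ciliated Wdr34 clone, at 88.7 ± 0.59. A low level was also seen in non-ciliated control 3, at 49.2 ± 2.13 CPM. Mutations in IFT80 are a known cause of short-rib thoracic dysplasia, and here the ciliated controls fell into a low and a high pair, with the 3 ciliated mutant clones, at 70.5, 65.0 and 66.7 CPM, between them, while the non-ciliated controls were graded from 49.2 to 97.3 CPM. Ift172 ranged from 40.1 ± 0.53 (A4) to 82.3 ± 2.16 CPM (non-ciliated control 2). Its libraries agreed closely, with an SD between libraries of 0.09 (log2), and its SD over 13 clones of 0.33 was 3.68 times as large. At the other end, the SD of Ift74 over clones, 0.20, was 0.917 times that between libraries, 0.21.

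Over all 13 clones, 9 of 10 members had an SD below that of the median gene. The SD over 13 clones was lowest for Ift57 (0.14) and Ift46 (0.16), at the 2.24 and 3.97 percentile of all tested genes. Ttc26 was the only member above the median gene, with an SD of 0.46 at the 57.1 percentile and a 3.06-fold range of levels. Ift172, Ift81 and Ift80 lay between the 36.5 and 47.2 percentile. The median SD over all tested genes was 0.41. Among the ciliated controls alone, Ift80 (0.63), Ift81 (0.49), Ift88 (0.38) and Ift172 (0.338) were above the median gene of 0.337. Genes with few counts, which vary more through counting alone, are part of that ranking.

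**Figure D3:**
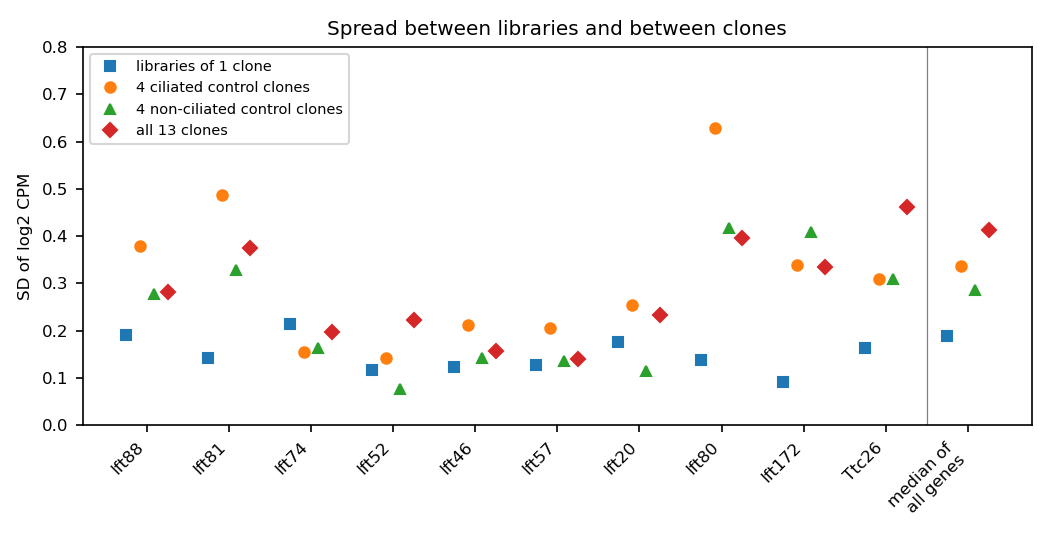
SD of log2 CPM for each member between the libraries of a clone (squares), among the 4 ciliated (circles) and 4 non-ciliated control clones (triangles) and over all 13 clones (diamonds), with the median over all tested genes at the right. Ift80, Ift81, Ift172 and Ttc26 vary far more between clones than between libraries, and Ift74 does not.

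Clones of a cell line can differ in the number of copies of a chromosome, so each member was set beside the median of the other tested genes on its chromosome in the same clone. The values are log2 differences from the mean of 13 clones. On chromosome 3 that median ranged from -0.37 (non-ciliated control 3) to 0.26 (non-ciliated Wdr34), over 670 genes. In the other clone with a strongly lowered chromosome 3, ciliated control D8, it was -0.35, and Ift80 was low in both. Over the 13 clones Ift80 and its chromosome had a Pearson r of 0.71. G7 and A4, with chromosome medians near each other at -0.09 and -0.08, nevertheless had the high and the low extreme of Ift80 in ciliated controls. For Ift81 on chromosome 5 the r was 0.85, with chromosome medians of 0.25 and 0.20 in the non-ciliated and ciliated Wdr60 clones, where Ift81 was highest, and of -0.19 in G7, where it was lowest. Ift172, on the same chromosome, had an r of 0.57.

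For Ift52 on chromosome 2 the r was 0.68. Wdr34 clone 3 had the lowest chromosome 2 median, at -0.36, and the lowest Ift52 level. The same clone had the highest chromosome 4 median, at 0.38, and the highest level of Ift74, which is on chromosome 4. For Ttc26, chromosome 6 was low in AB (-0.39), in the non-ciliated (-0.35) and ciliated Wdr60 clones (-0.32) and in H12 (-0.26), and lay between 0.06 and 0.22 in the other 9 clones. Low Ttc26 was found in G7 as well, where the chromosome median was 0.19, and r was 0.45. Chromosomes 9, 11, 14 and 16 moved little, within -0.09 to 0.08, and Ift46, Ift20, Ift88 and Ift57 on them had r between -0.63 and 0.35. Subtracting the chromosome median lowered the SD over clones from 0.37 to 0.27 for Ift81, from 0.40 to 0.29 for Ift80 and from 0.22 to 0.17 for Ift52. It also lowered the SD from 0.33 to 0.28 for Ift172, from 0.46 to 0.41 for Ttc26, from 0.20 to 0.17 for Ift74 and from 0.16 to 0.15 for Ift46. It raised the SD from 0.14 to 0.17 for Ift57, from 0.282 to 0.289 for Ift88 and from 0.233 to 0.237 for Ift20. Neither r nor SD was taken in this way for other single genes, so these values do not set the members apart. Some clones of different states had like chromosome medians. Among them were AB and H12 on chromosomes 3 (0.25 and 0.21) and 6 (-0.39 and -0.26), although these differed on chromosome 4 (-0.04 and 0.21). Non-ciliated control 3 and D8 were alike on chromosomes 3 and 6 (0.22 and 0.18 on 6). Non-ciliated control 1 and A4 were alike on chromosomes 5 (-0.13 and -0.15) and 6 (0.13 and 0.09). Non-ciliated control 2 and G7 were alike on chromosome 6 (0.15 and 0.19), less so on 5 (-0.07 and -0.19), and both were low in Cdh1. Others were the non-ciliated Wdr34 clone and Wdr34 clone 1 on chromosome 3 (0.26 and 0.23), and the Wdr60 clones on chromosomes 5 and 6. In each of these pairs Ttc26 and Ift52 were lower in the ciliated sample, at the levels given above. This adds no separate test, because the pairs were picked from these same expression data. The state groups also did not overlap for Ift52 in controls or for Ttc26 in mutants, so any pairing would give this there. The share of all genes lower in every pair was not counted. The fits do not use such pairs, and whether these samples are the same clone was not tested. No copy number was measured, and the part of the chromosomes in these levels was not tested.

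**Figure D4:**
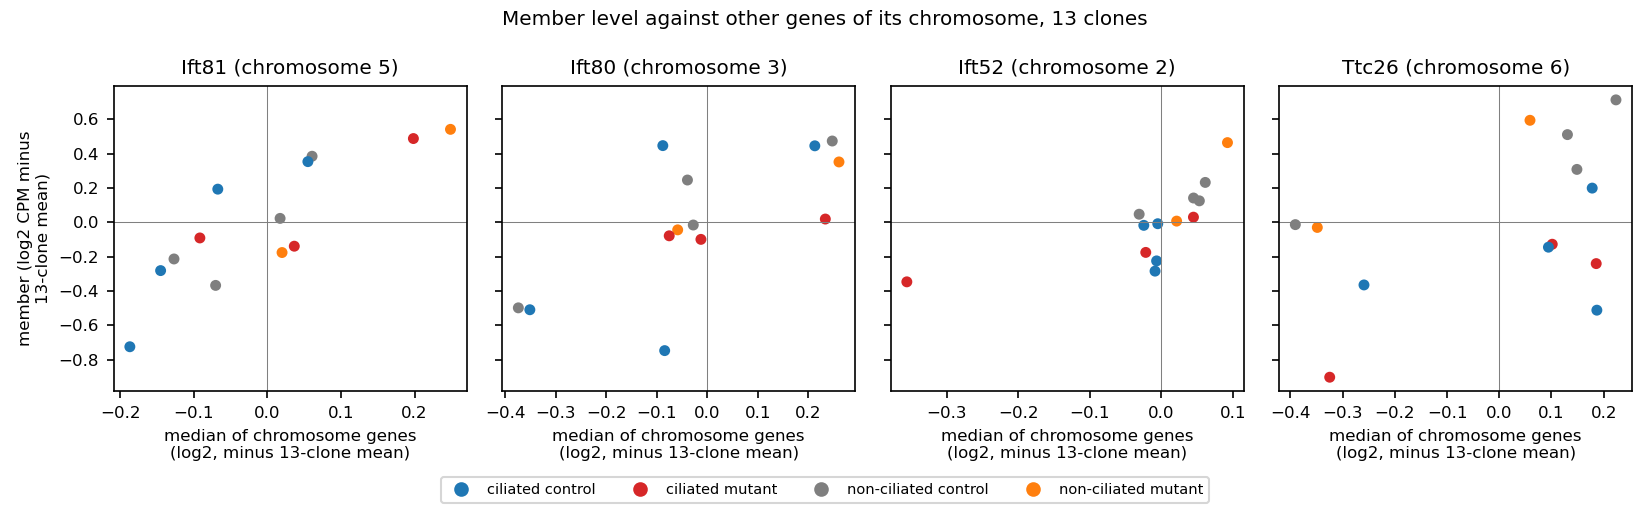
Member level against the median level of the other tested genes on its chromosome, each point 1 of 13 clones coloured by group, both axes as log2 difference from the mean of 13 clones. Points of Ift81 rise along chromosome 5 (r = 0.85), while those of Ttc26 on chromosome 6 (r = 0.45) also separate by state.

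Finally the pattern over clones was compared between members. Of the 45 pairs, 31 had a positive Pearson r over the 13 clones, with a median of 0.23, where all pairs of tested genes had a median of -0.001 and 49.9% were positive. Points share their clones, normalisation and chromosomes, and these r values are given as a description. Ift88 and Ift81 had the highest r at 0.75, followed by Ift88 and Ift57 at 0.72 and Ift20 and Ift172 at 0.68. After centring each state the first of these was 0.77. Ttc26 had a negative r with 7 of the other 9 members over 13 clones, the exceptions being Ift74 (0.30) and Ift52 (0.18). With the state centred, its r was -0.78 with Ift52, -0.74 with Ift20, 0.06 with Ift57, 0.00 with Ift74 and -0.73 with the mean of the other 9 members, while Ift88 had 0.80 with the mean of its other 9. The mean deviation of all 10 members from their own averages was lowest in A4 at -0.28, where 2 of 10 members were above their mean, and highest in AB at 0.21, where 9 were. Summed, the members made up 340 ± 39.4 CPM in A4 and 505 ± 10.6 CPM in AB. Among genes outside the set, the closest to the mean pattern of the members was Spice1, a centriole biogenesis gene, with an r of 0.96 over 13 clones, from 18.2 to 30.2 CPM. Cdk11b (0.89), Lman2l, Zfp934 and Gm5069 (each 0.88) followed, Gm5069 at a low level (log2 CPM from -1.82 to 0.329). In a search over all tested genes with 13 clones, the highest r values are large by themselves. After centring each state Spice1 (0.96), Enox2 (0.93), Camkmt (0.92), Tmem80 (0.90) and Eldr (0.88) were the closest.

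**Figure D5:**
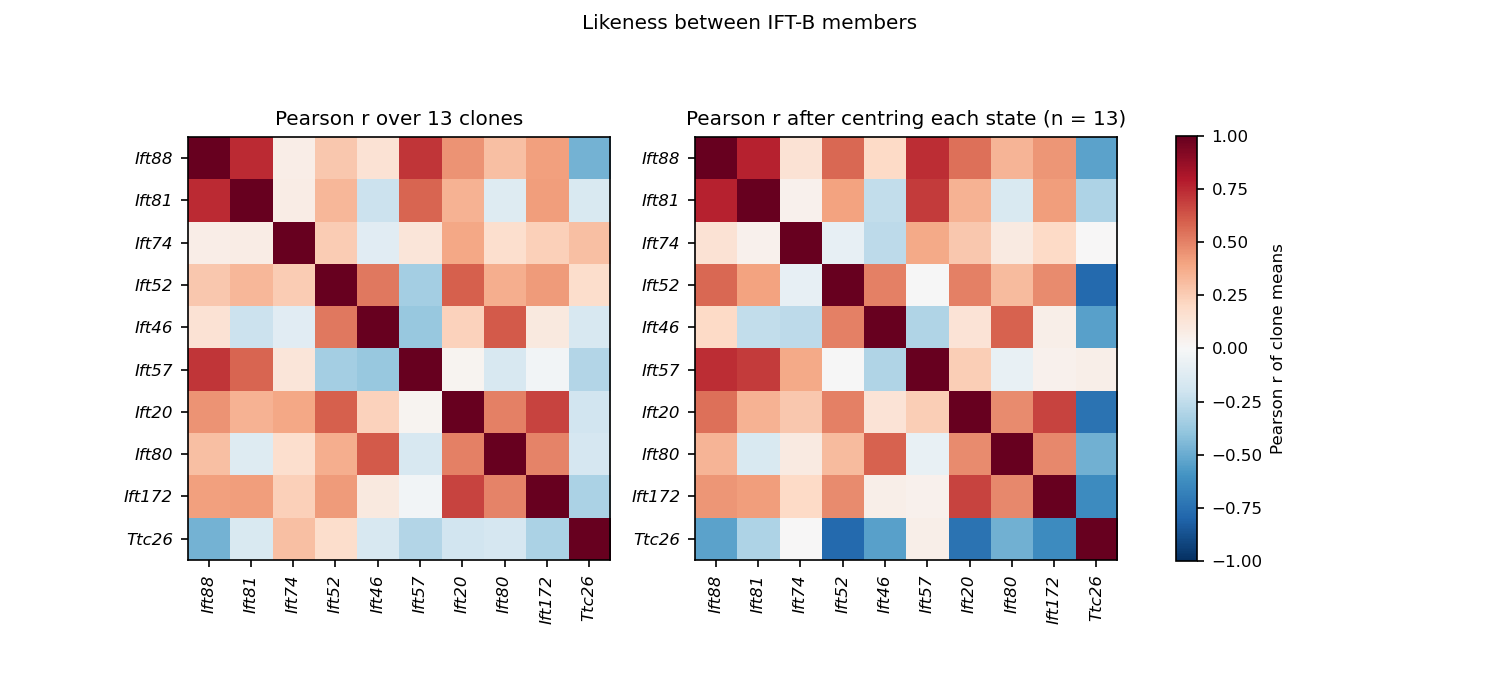
Pearson r between members over the mean log2 CPM of 13 clones (left) and after centring each state (right), from -1 (blue) to 1 (red). Ttc26 is blue against Ift52, Ift20 and Ift172 on the right, and Ift88, Ift81 and Ift57 form the reddest block, with r from 0.70 to 0.77 after centring.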

How the data were processed

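Paired-end reads were mapped by the authors to the mouse build GRCm38/mm10. The deposited values are raw read counts per gene symbol, made with featureCounts under R 3.4.4, with 1 table per library. They list DESeq2 1.18.1 for testing. The strand setting and the treatment of reads with several matches are not given in the sources used here. Counts of the 4 technical libraries of a clone were summed, since the clone is the sample. P-values measure the spread between these samples of single clones of 1 line. They do not allow for a clone that occurs in both states. edgeR 4.0.16 (TMM, filterByExpr, quasi-likelihood F test, 2-sided, R 4.3.3) was fitted to all 13 clones, with 4 groups, or with each mutant clone as its own group (14567 genes tested). Levels are TMM-scaled CPM per library. Intervals are 95% intervals of the fit. Exact permutation tests used clone means of log2 CPM. Alternatives were DESeq2 1.42.0, RLE size factors, other filters, libraries as samples (with the replicate number as a block, or the clone as a random block by limma 3.58.1), an added fold limit and leaving out libraries or clones. The tests were checked on simulated counts. Exon lengths and positions came from GENCODE vM21, promoters from RefSeq. The text names all members, the edited genes, up to 4 called genes per list and the 5 genes most like the members. The members and the gene lists were chosen with earlier results of these data known.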

Additional observations from a re-analysis of the deposited data

Results flagged for a closer look

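In each clone the 4 library values of each member were checked for a value far from the rest by Dixon's criterion, as were the 4 control clones of each state. Of the 150 such groups 12 had one, where chance alone flags about 1 in 20. In the non-ciliated Wdr60 clone the first library was high for Ift88 (23.2 CPM), Ift52 (71.1 CPM) and Ift46 (60.2 CPM), and this library also lay far from its clone over all genes, by a median of 0.232 (log2). In ciliated control H12 a library was high for Ift74 (63.2 CPM) and Ift52 (50.5 CPM). High single libraries of Ift52 were found in non-ciliated control 1 (51.3 CPM) and ciliated Wdr60 (53.3 CPM), and of Ift46 in ciliated control D8 (40.4 CPM). Ift20 was high in 1 library each of non-ciliated control AB (37.8 CPM), ciliated control A4 (24.5 CPM) and ciliated control G7 (34.3 CPM). Among the 4 non-ciliated control clones, control 2 stood apart with a mean of 20.1 CPM for Ift57, below the others.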

How the results depend on the processing

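No member passed the threshold in any comparison on clone sums, under DESeq2, RLE size factors, either filter, the fold limit, or with any library number or clone left out. With libraries as samples, without and with the replicate block alike, the number of members called was 3 and 3 for the state in controls, 2 and 2 for the state in mutants, 2 and 2 for Wdr34 clone 3, 3 and 3 for the ciliated Wdr60 clone, 2 and 2 for the non-ciliated Wdr60 clone and 2 and 2 for the Wdr60 state comparison. With the clone as a random block it was 1, Ttc26 in controls. The fits without the random block treat repeats of a clone as samples. No other count moved. Replicate numbers did not pair the libraries: same-numbered libraries of different clones had a median correlation of -0.000997 (other pairs -0.000453) and 14 of 52 correlated best with their own number. Of all genes, 1256 were higher and 1324 lower between states in controls on clone sums, against 514 and 357 with the fold limit, 530 and 648 without non-ciliated control 1, 652 and 847 without non-ciliated control 3, 801 and 897 without H12, and 3992 and 3768 over libraries. In mutants 745 were higher and 1054 lower, against 470 and 446 with the fold limit. Under plain CPM the exact permutation p of Ift52 between states was 0.143 instead of 0.0286, and it moved 25 of 130 clone levels by more than their SD. Members differing between control clones numbered 7 to 10 of 10 in ciliated and 5 to 8 in non-ciliated controls with a library number or clone left out. For Ttc26 between states in controls, log2 fold changes with a clone left out ran from -0.77 (without D8) to -0.49 (without non-ciliated control 3). Every member had at least 211 counts in every library. Groups held 2 to 4 clones, or 1 in the single-clone comparisons.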
